A study of Oryctolagus cuniculus with 3 samples.

Results

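The AP-1 factors of the FOS and JUN families are described here across 3 stages of a differentiating corneal epithelial cell line. Members were the 9 genes FOSL1, FOSL2, FOS, FOSB, JUN, JUNB, JUND, ATF3 and BATF3, taken wherever a row of the tables carries that gene name. Of the 9, 7 were listed among 20536 gene names, and 6 reached the minimum of 1 CPM (counts per 1000000 scaled fragments) in at least 1 library, as 12818 genes did. JUNB and JUND are not among the listed gene names and so were not analysed here. BATF3 had no fragment in any of the 3 libraries.

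The cells were RCE1(5T5), a rabbit line of corneal epithelium, represented by 1 library for non-differentiated cells (day 4), 1 for committed cells (day 6) and 1 for terminally differentiated cells (day 10). All cultures shared the same conditions: a layer of 3T3 mouse fibroblasts treated with mitomycin C, and medium with fetal calf serum, insulin, transferrin, hydrocortisone, triiodothyronine, cholera toxin, adenine and epidermal growth factor (EGF). The fibroblasts were detached with EDTA before total RNA was taken. As each stage is a single library, stage, day and library cannot be told apart, and no difference has a replicate check or a p-value.

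AP-1 is a dimer of basic leucine zipper (bZIP) proteins that binds DNA. FOS proteins do not pair with each other and need a JUN partner, while JUN proteins can also pair among themselves. FOS, FOSB and JUN are immediate early genes, which growth factors switch on within minutes. FOSL1 (the protein FRA-1) and FOSL2 (FRA-2) lack the strong activation domain of FOS, and sustained ERK kinase signalling both induces and stabilises FRA-1. In stratified epithelia AP-1 sites lie in the promoters of growth and motility genes and of differentiation genes such as involucrin.

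The libraries held 10171693, 12582706 and 10899578 fragments on days 4, 6 and 10. Rose and fell are used for a change of at least 2-fold in log2(CPM + 1), a rule of size and not a test. Brackets give exact 95% intervals (approximate where stated), which cover the counting error of a library and neither PCR duplication nor the spread between cultures. All 10 epithelial markers were measured in these cells; KRT12, the corneal type I keratin, had 0 fragments on day 4. Fibroblast markers were also present: their summed levels were 6271, 4210 and 2775 CPM on the 3 days, with 12 of 13 listed markers measured and LUM at 0 throughout. In bulk RNA, fewer cells of a type and less RNA per cell cannot be told apart.

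FOSL1 was highest in the library of non-differentiated cells. Its fragments numbered 840, 46 and 33 on days 4, 6 and 10, or 77.1, 3.81 and 3.11 CPM. The day 4 library alone was high, and the other two did not differ beyond counting error (1.23-fold lower on day 10 [0.768 to 1.98]). Between days 4 and 6 FOSL1 fell 20.2-fold [15 to 27.8], which was the second lowest difference among the 12818 measured genes, behind SERPINB2, a serine protease inhibitor. Over the whole interval it fell 24.8-fold [17.5 to 36.3], and 8 genes lay lower: THBS1, DLK1, SLIT2, IL20, THBS2, SERPINB2, LTBP2 and HMGA2. By deposited TPM (a level per transcript length), FOSL1 moved from percentile 87.8 of the measured genes on day 4 to percentiles 26.4 and 23.4.

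FOSL2 ran the other way. Its fragments numbered 189, 465 and 832, or 17.3, 38.6 and 78.4 CPM. Each library was above the one before it, beyond counting error. FOSL2 rose 2.22-fold [1.87 to 2.65] to day 6 and 2.03-fold [1.81 to 2.28] from there to day 10, so that each step lay close to the 2-fold limit. The whole rise was 4.52-fold [3.85 to 5.32]. In CPM, which is not per length, its day 10 level was close to that of FOSL1 on day 4. In TPM it was lower, at 63.7 against 94.7. The TPM percentile of FOSL2 went from 56.4 to 75.6 and 87.3. The first step missed the limit without TMM scaling (log2 difference 0.95), with TPM (0.83) and with a pseudocount of 5 (0.96), and the second with a pseudocount of 5 (0.94).

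**Figure D1:**
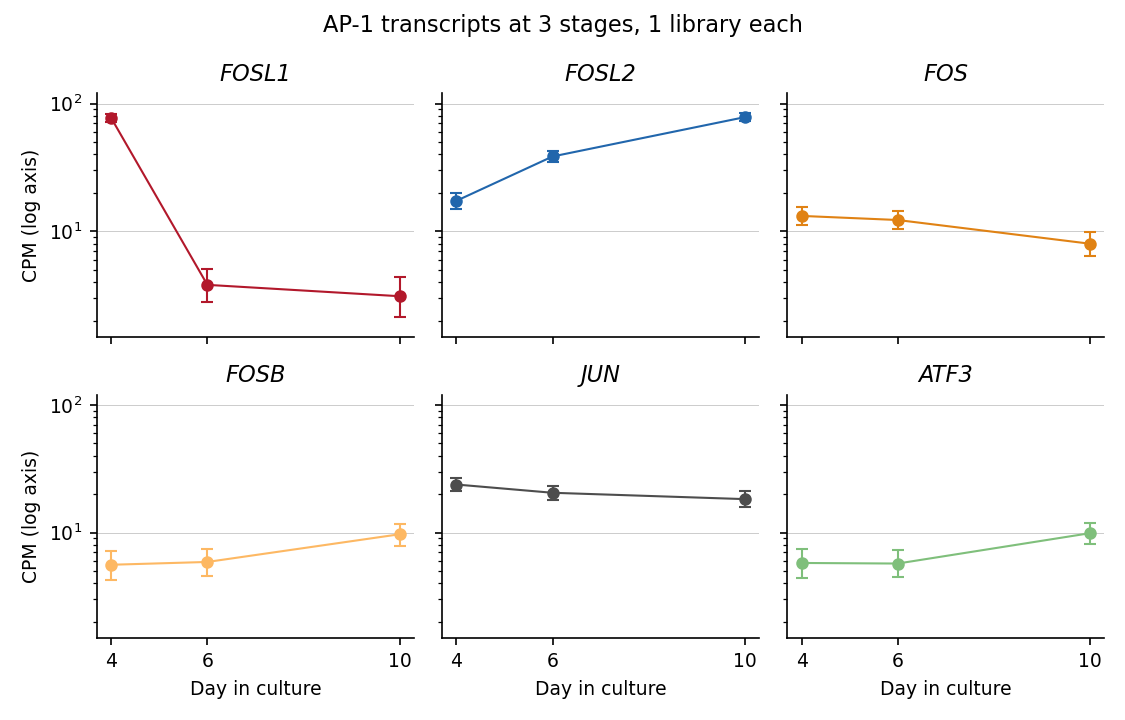
Level of the 6 measured AP-1 genes by day in culture. The vertical axis is CPM on a log scale and bars are exact 95% Poisson counting intervals of 1 library each. FOSL1 drops from 77.1 to 3.81 CPM between days 4 and 6, FOSL2 climbs from 17.3 to 78.4 CPM by day 10, and the other genes lie between 5.60 and 23.8 CPM.

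The classical immediate early members moved much less. FOS, the founding member of its family, was at 144, 148 and 85 fragments, or 13.2, 12.3 and 8.01 CPM. Days 4 and 6 did not differ beyond counting error, and day 10 was 1.53-fold lower than day 6 [1.17 to 2.03], short of the 2-fold limit. FOSB was at 61, 71 and 103 fragments, or 5.60, 5.89 and 9.70 CPM, and was 1.65-fold higher on day 10 than on day 6 [1.21 to 2.26]. FOS was therefore lowest and FOSB highest on day 10, and neither passed the limit in any comparison.

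JUN, the only JUN gene analysed, was at 259, 247 and 194 fragments, or 23.8, 20.5 and 18.3 CPM. It was 1.30-fold lower on day 10 than on day 4 [1.08 to 1.58], short of the limit. ATF3, a bZIP protein that pairs with JUN and is induced by stress, was at 63, 69 and 105 fragments, or 5.78, 5.72 and 9.89 CPM. Day 10 stood above the other libraries, 1.73-fold over day 6 [1.26 to 2.38], also short of the limit. The ATF3 values sum 3 coding sequences that received equal fragments in each library, so isoforms could not be compared. BATF3, a partner of JUN known from dendritic cells, had 0 fragments, which allows up to 3 fragments, or 0.275, 0.249 and 0.283 CPM on the 3 days.

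Counted together, 1 of the 6 measured members rose (FOSL2) and 1 fell (FOSL1) between days 4 and 6, against 8.06% and 6.73% of all measured genes. At the second step, to day 10, 1 rose (FOSL2) and 0 fell, against 8.25% and 7.1%. Over the whole interval, 1 rose and 1 fell, the same genes, against 17.1% and 15.8%. The median log2 difference of the members was -0.06, 0.24 and 0.16 in the 3 comparisons, beside 0.00, -0.01 and 0.01 over all measured genes. With TPM the member medians were -0.44, 0.20 and -0.28, and those of all genes -0.30, -0.02 and -0.31. Counts of 1 member in 6 carry little, and the comparisons share libraries.

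**Figure D2:**
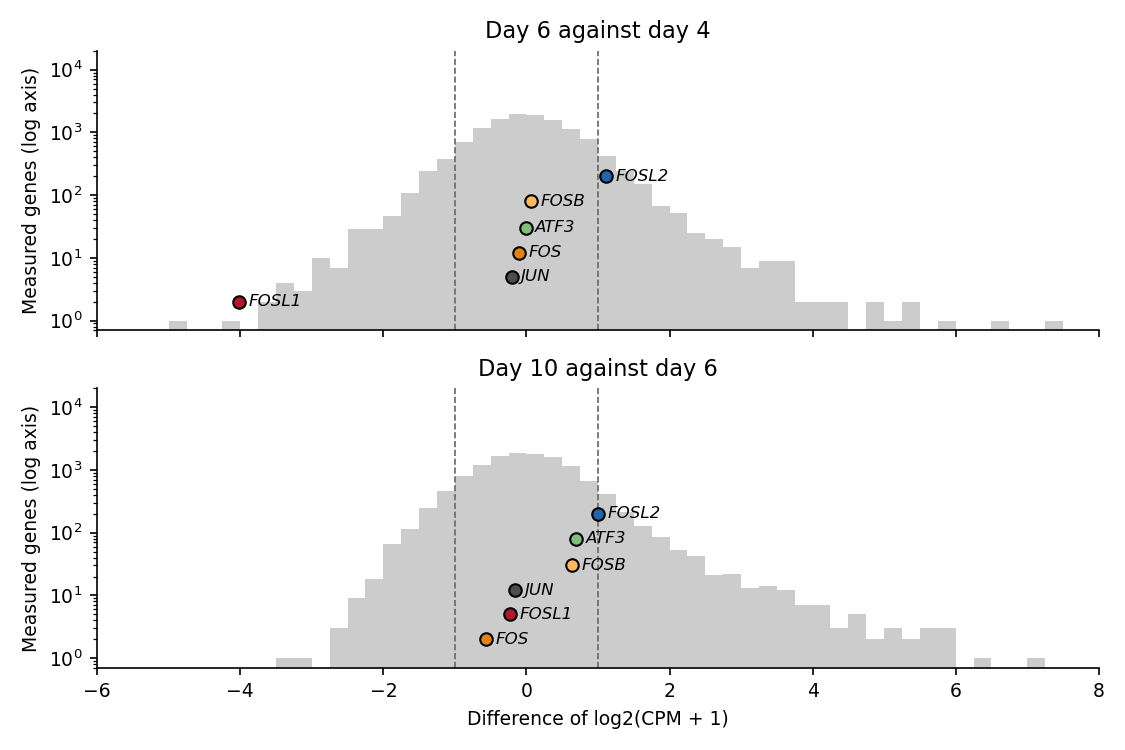
Differences of log2(CPM + 1) of all 12818 measured genes (grey histogram, gene counts on a log axis) with the 6 AP-1 genes as points, whose height only separates the names; dashed lines mark 2-fold. FOSL1 lies at -4.02 in the left tail of the first step, while FOS, FOSB, JUN and ATF3 lie between the dashed lines in both steps.

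Levels can be compared between genes on the TPM scale. Brackets on TPM values and TPM ratios carry over the interval of the fragment counts. They are approximate, as the TPM of the members, most visibly of FOSB, followed their reads more closely than their fragments. On day 4 FOSL1 led at 94.7 TPM [88.4 to 101], followed by JUN at 21.5 [19 to 24.3], FOSL2 at 17 [14.7 to 19.6], FOS at 12.1 [10.2 to 14.2], ATF3 at 10 [7.68 to 12.8] and FOSB at 5.1 [3.9 to 6.55]. The counting intervals of JUN and FOSL2 overlapped, as did those of FOS and ATF3. On day 6 FOSL2 led at 30.9 TPM [28.2 to 33.8], then came JUN at 14.8 [13 to 16.8], FOS at 8.5 and ATF3 at 7.5, with FOSB at 3.6 and FOSL1 last at 3.3. The intervals of FOS and ATF3, and those of FOSB and FOSL1, overlapped. On day 10 FOSL2 was far ahead at 63.7 TPM [59.4 to 68.2]. ATF3 at 12.2 [9.98 to 14.8] and JUN at 12.8 [11.1 to 14.7] overlapped, as did FOS at 5.6 and FOSB at 5.7, and FOSL1 was lowest at 2.9 [2 to 4.07]. The place of FOSB depends on the unit, since it had few reads for its fragments: by the fragment-based FPKM it was at 10.6 on day 10 and FOS at 6.8.

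The FOS family pool thus changed its leading member. The 4 FOS family genes summed to 128.9, 46.3 and 77.9 TPM on the 3 days. FOSL1 made up 73.5% of the pool at first, then 7.13% and 3.72%. FOSL2 made up 13.2%, 66.7% and 81.8%. The share of FOS was highest on day 6, at 18.4%, against 9.39% on day 4 and 7.19% on day 10, although its own level did not rise. The share of FOSB was 3.96%, 7.78% and 7.32%, on the same TPM scale. As shares of fragments, which carry a counting interval but are not per length, FOSL1 had 68.1% [65.4 to 70.7], 6.3% [4.65 to 8.32] and 3.13% [2.17 to 4.37].

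The ratio of FOSL1 to FOSL2 is taken within a library and does not depend on library scaling. By TPM, FOSL1 was 5.57 times FOSL2 on day 4 [4.75 to 6.56]. FOSL2 was 9.36 times FOSL1 on day 6 [6.91 to 13] and 22 times on day 10 [15.5 to 32.1]. By fragments, the ratio fell 44.9-fold to day 6 (approximate interval from the 4 counts, 31.9 to 63.2) and a further 2.49-fold to day 10 (1.57 to 3.96). Most of the exchange thus lay between days 4 and 6, where the FOSL1 fall was far larger than the FOSL2 rise. Without FOSL1 the pool went from 34.2 to 43 and 75 TPM. The whole pool was 6 times the level of JUN on day 4, 3.13 times on day 6 and 6.09 times on day 10. These are RNA levels: the AP-1 proteins were not measured, and JUNB and JUND are missing from the JUN side.

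**Figure D3:**
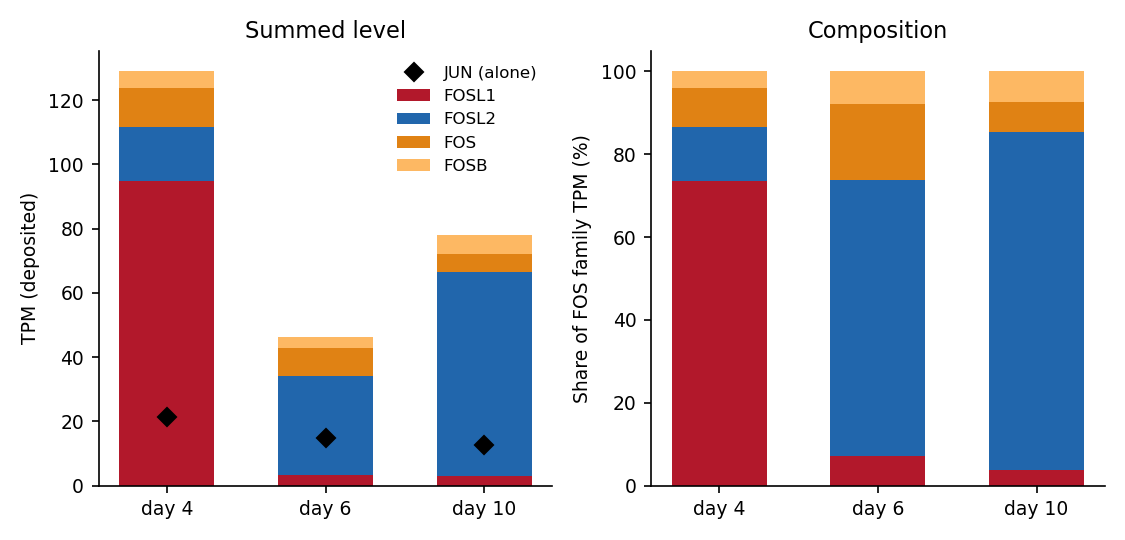
Deposited TPM of FOSL1, FOSL2, FOS and FOSB stacked by day (left, with JUN alone as diamonds) and as shares of the FOS family total in percent (right); 1 library per bar. The stack is 128.9, 46.3 and 77.9 TPM high, and the leading part changes from FOSL1 (73.5%) on day 4 to FOSL2 (81.8%) on day 10.

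Few genes lay near FOSL1 in the size of both steps. Likeness was the Euclidean distance between the pairs of log2 differences of the successive steps, over 3 libraries and 8313 named genes with at least 10 CPM. The nearest to FOSL1 were CYP1B1 (distance 0.79), CYR61 (0.85) and FHL1 (0.93), and 0 genes lay within 0.5. FOSL1 had the second lowest difference at the first step, where few genes lie. The count of 0 therefore does not measure how rare its course was. CYR61, which encodes a matrix-associated growth regulator, was at 74.7, 4.98 and 7.72 CPM. Within 0.5 of FOSL2 lay 246 genes, the nearest being CARF, GGCT and STAMBP. The gentler courses of FOS and JUN had 1652 and 2154 genes within that distance, with ABCC5, SCAF1 and ZNF282 nearest to FOS and MBD1, R3HCC1 and PFDN2 nearest to JUN.

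Chromosomal neighbours were read from the RefSeq table of assembly mOryCun1.1, used for gene order only. Of the 3 protein-coding genes on each side of FOSL1, 2 were measured. DRAP1 was at 172.9, 169.9 and 105.5 CPM and C1H11orf68 at 27.4, 20.7 and 12.6 CPM. Neither fell between days 4 and 6, where 6.73% of all measured genes fell. C1H11orf68 fell from day 4 to day 10 (log2 difference -1.06), where 15.8% did. Beside FOSL2, 4 of 6 were measured and 0 rose to day 6, against 8.06% of all measured genes. Between days 6 and 10, 1 of the 4 rose, against 8.25% of all measured genes. It was PLB1, a phospholipase gene, from 0.581 to 7.82 CPM. FOS lies next to 2 further bZIP genes, JDP2 and BATF. JDP2, a repressor of AP-1, rose from 5.32 to 12.2 CPM between days 4 and 6 and was at 7.16 CPM on day 10. BATF had no fragment. Of the 4 measured neighbours of FOS, 2 rose between days 4 and 6, JDP2 and ZC2HC1C, against 8.06% of all measured genes.

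Among the other bZIP factors, 5 of 28 measured genes rose and 2 fell from day 4 to day 6 (median 0.28), against 8.06% and 6.73% of all measured genes. Among the rises were those of CEBPE at 2.63-fold [2.06 to 3.38] and CREB3 at 2.46-fold [2.09 to 2.91]. The falls were CREB5, from 46 to 3 fragments, and MAFF, a small MAF protein, at 3.86-fold. Thereafter 3 rose and 0 fell (median 0.06), against 8.25% and 7.1%: TEF at 3.43-fold [2.54 to 4.68], the stress factor DDIT3 at 2.83-fold [2.26 to 3.55], and HLF from 17 to 49 fragments. Day 10 set against day 4 gave 6 that rose and 2 that fell (median 0.29), against 17.1% and 15.8%. With TPM the first step gave 2 and 3 of 26, beside 558 and 1629 of all 12331 measured genes. The whole interval then gave 3 and 3, beside 1382 and 2945. ATF4, the integrated stress response factor, fell 2.46-fold over that interval.

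Other immediate early genes were lower on day 6 in greater number. Their list was chosen with earlier results of these data known, so its counts beside all genes are descriptive only. Of 24 measured, 10 fell and 0 rose between days 4 and 6 (median -0.93), where 6.73% of all measured genes fell. Without TMM scaling or with TPM the count was 15. More of all measured genes fell there too, 1217 of 12818 and 1629 of 12331, against 863 of 12818 with TMM scaling. CYR61 fell 15-fold [11.5 to 19.9], PTGS2, an inducible prostaglandin synthase, 7.34-fold, and CTGF, a relative of CYR61, 6.17-fold. The orphan nuclear receptors NR4A1, NR4A2 and NR4A3 fell too. EGR1, which is commonly induced together with FOS, was at 10.7, 8.38 and 14.4 CPM, and like FOS it passed the limit in no comparison. By day 10, 6 had risen from day 6 and 1 had fallen (median 0.36), against 8.25% and 7.1% of all measured genes. CTGF rose 3.83-fold [3.27 to 4.49], the ERK and JNK phosphatase DUSP1 3.74-fold [3.13 to 4.49] and PTGS2 2.53-fold [2.12 to 3.02]. NR4A1 fell from 44 to 12 fragments. FOSL1 was at 3.81 and 3.11 CPM at that step. Across the whole interval 9 fell and 0 rose (median -0.69), against 15.8% and 17.1%. Among those that fell was SRF, the serum response factor, from 33.9 to 9.98 CPM.

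Of 28 measured genes for the MAP kinase relays that signal to AP-1, 3 rose and 0 fell between days 4 and 6 (median 0.01), against 8.06% and 6.73% of all measured genes: MAPK3 (the kinase ERK1) at 2.45-fold [2.2 to 2.73], MAP3K1 at 2.45-fold [2.1 to 2.87] and MAPK12 at 2.4-fold [1.83 to 3.17]. With TPM, 0 rose and 2 fell at this step, where 558 of all 12331 measured genes rose and 1629 fell. After day 6, 2 rose (RPS6KA5 and BRAF) and MAP2K3, which activates p38 kinases, fell 2.49-fold (median 0.17), against 8.25% and 7.1%. By day 10, 8 had risen from day 4 and 2 had fallen (median 0.19), beside 17.1% and 15.8% of all measured genes. MAPK3 rose by 3.83-fold [3.45 to 4.25]. With TPM 4 rose and 4 fell over the whole interval, beside 1382 and 2945 of 12331 genes. MAPK8 and MAPK9, which encode the JUN kinases JNK1 and JNK2, were at 17.8, 18.7 and 18.1 CPM and at 25.6, 29.9 and 41.3 CPM. RNA levels say nothing of kinase activity.

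Of 16 measured regulators of AP-1 transcription and protein turnover, 1 rose and 0 fell by day 6 (median -0.11). Among all measured genes 8.06% rose and 6.73% fell. The regulator that rose was USP28, a deubiquitinase that opposes the ligase FBXW7, at 2.3-fold [1.94 to 2.72]. Later, between days 6 and 10, 1 rose and 1 fell (median 0.12), against 8.25% and 7.1%. ITCH, a ubiquitin ligase of JUN proteins, rose 2.34-fold [2.16 to 2.54] and FHL2, a LIM-domain cofactor, fell 3.07-fold. The whole interval gave 2 that rose and 2 that fell (median -0.16), against 17.1% and 15.8%. ELK1, an ERK-responsive activator of FOS, was at 20.6, 12.5 and 14.9 CPM.

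Genes reported elsewhere as AP-1 targets were taken as separate lists of matrix, motility and growth genes and of differentiation genes. Both lists were chosen with earlier results of these data known, so their counts beside all genes are descriptive only. Of 25 measured matrix, motility and growth genes, 11 fell and 0 rose between days 4 and 6 (median -0.69), where 6.73% of all measured genes fell. Thrombospondin THBS1 fell 11.5-fold [10.4 to 12.7], the EGF receptor ligand EREG 10.2-fold [6.72 to 16.1] and the chromatin protein HMGA2 7.59-fold [6.36 to 9.11]. The urokinase receptor PLAUR, picked after its values were seen, was at 124.8, 16.8 and 14.4 CPM, high in the day 4 library alone as FOSL1 was. The collagenases MMP1 (81.9, 69.8 and 95.3 CPM) and MMP13 (41.5, 25.3 and 33.6 CPM) passed the limit in no comparison. In the second step 3 rose and 7 fell (median 0.00), against 8.25% and 7.1% of all measured genes. MMP10 rose from 7 to 116 fragments, and ITGA2 rose 2.1-fold [1.85 to 2.39]. By day 10, compared with day 4, 15 fell and 3 rose (median -1.19), against 15.8% and 17.1% of all measured genes. With TPM 14 fell at the first step, and 15 fell and 0 rose over the whole interval. Of all 12331 genes measured with TPM, 1629 fell at the first step. Over the whole interval 2945 of them fell and 1382 rose.

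Of 11 measured differentiation genes, 4 rose and 1 fell by day 6 (median 0.45), 4 rose and 3 fell from day 6 to day 10 (median 0.02), and 7 rose and 1 fell from day 4 to day 10 (median 2.50). The shares of all measured genes that rose and fell were 8.06% and 6.73%, 8.25% and 7.1%, and 17.1% and 15.8% in these comparisons. KRT10, a keratin of suprabasal cells, rose 9.24-fold [8.09 to 10.6] by day 6. CDSN fell from 42 to 15 fragments by day 6 and then rose 33.4-fold to 41.5 CPM. IVL (involucrin), whose promoter AP-1 sites are well known, was at 13.7, 20.5 and 27.3 CPM. It passed the limit in no comparison, although day 10 against day 4 lay close to it. KRT16, which has close paralogs that can share its reads, was at 437.8, 567.2 and 134.3 CPM. It fell between days 6 and 10 and over the whole interval. These lists are descriptions of expression; binding of AP-1 to these genes was not measured.

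**Figure D4:**
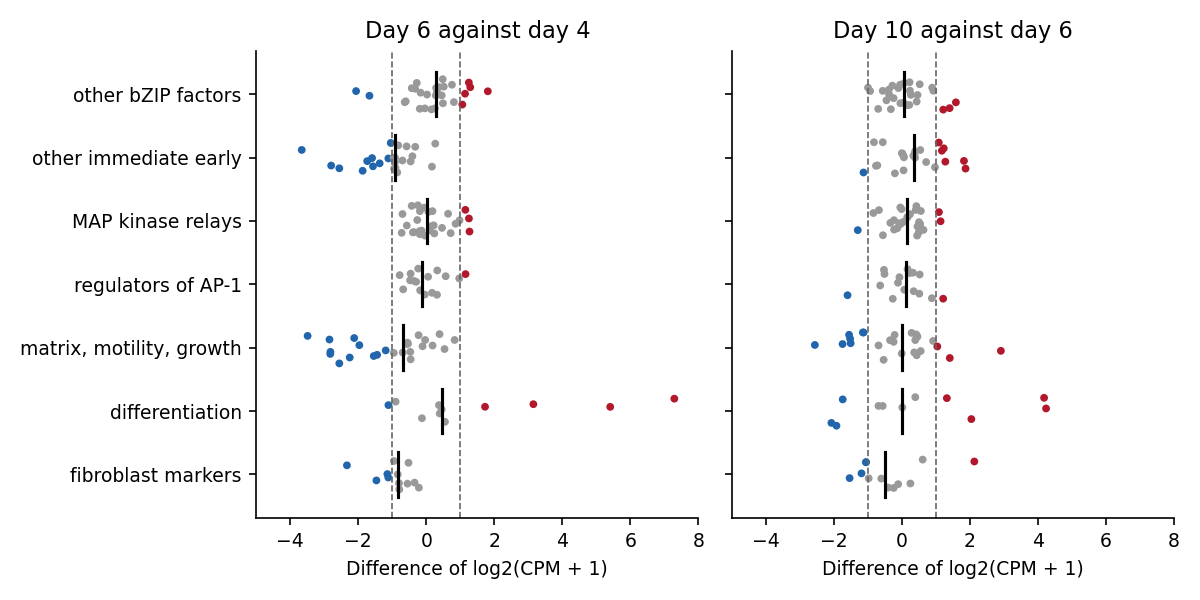
Differences of log2(CPM + 1) for each measured gene of 7 lists, day 6 against day 4 (left) and day 10 against day 6 (right); each point is a gene, jittered vertically, red where at least 2-fold higher and blue where at least 2-fold lower, with a black bar at the list median. In the first step 10 of 24 other immediate early genes and 11 of 25 matrix, motility and growth genes are blue and 0 of either are red. The lists were chosen with earlier results of these data known.

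The fibroblast markers moved in the same direction as FOSL1. Of 12 measured, 4 fell and 0 rose between days 4 and 6 (median -0.82), against 6.73% and 8.06% of all measured genes. Without TMM scaling 5 fell, and with TPM 8 fell (median -1.17, beside -0.30 over all genes). Between days 6 and 10, 4 fell and 1 rose (median -0.50), against 7.1% and 8.25%. From day 4 to day 10, 9 fell and 1 rose, against 15.8% and 17.1%. The largest fall at the first step was that of TAGLN, 5.44-fold, beside 20.2-fold for FOSL1, while the fibroblast receptor PDGFRA went from 15.1 to 4.81 CPM and COL1A1 from 541.9 to 312.5 CPM. Between days 6 and 10, where FOSL1 did not differ beyond counting error, the summed marker level went from 4210 to 2775 CPM. The part of fibroblast RNA in the FOSL1, immediate early and matrix gene values was not tested. Of 8 immune cell markers 3 were measured, with summed levels of 7.98, 27.5 and 72.7 CPM. CD68, a gene of macrophages and lysosomes, rose at both steps and LYZ, which encodes lysozyme, at the second, while TYROBP, FCER1G and CD3E were among the markers with 0 fragments. Their part in the AP-1 values was not tested.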

How the data were processed

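RNA was sequenced from 3 libraries, 1 per stage. The authors made estimated counts of fragments and reads per coding sequence, per the file headers; these expected counts, many fractional, were deposited without normalisation. The deposited FPKM, RPKM and TPM columns are the authors' values normalised for length and depth. A further deposited column of transcript counts, a coverage signal per the file headers, was not used. The submitters' processing notes name the build OryCun2.0. Not given in the sources used here are the aligner, counting program and strand use, and overlapping genes cannot be told apart. The tables list 38696 coding sequences.

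Fragments were summed per gene name, rounded and scaled with TMM factors of 1.071, 0.958 and 0.974 (edgeR 4.0.16, R 4.3.3). Of 718 LOC names with a symbol in the RefSeq table of mOryCun1.1, 671 took it. Calls need 1 CPM in at least 1 library and a 2-fold difference of log2(CPM + 1), a scale that understates the change of low genes; single folds are CPM ratios with exact Clopper-Pearson intervals. The calls were tested on simulated counts with planted 4-fold changes and counting error alone. That test does not bear on differences near 2-fold or on the spread between cultures. With 1 library per stage no count model was run. Members and lists were chosen with earlier results of these data known. Named list genes are up to 3 with the largest rise and fall past 2-fold in a comparison; EGR1, MAPK8, MAPK9, ELK1, MMP1, MMP13, IVL, ATF4, SRF, PLAUR, PDGFRA and COL1A1, and others outside that rule, were chosen after their values were seen. No sequences were used here. Alternatives were other scalings (none, DESeq2 1.42.0 size factors), TPM, read counts, the highest coding sequence, other pseudocounts, minimums and folds. A few genes that the naming rule would take are not reported here.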

Additional observations from a re-analysis of the deposited data

How the results depend on the processing

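The fall of FOSL1 to day 6 and to day 10 passed the limit under each of the 11 alternatives, and its log2 difference to day 6 ranged from -4.48 with TPM to -3.22 with a pseudocount of 5. The number of members that rose from day 4 to day 6 was 0 with no TMM factor, TPM, a pseudocount of 5 or a 4-fold limit. From day 6 to day 10 it was 0 with a pseudocount of 5 or a 4-fold limit and 3 at 1.5-fold (FOSL2, FOSB and ATF3). From day 4 to day 10, 3 rose and 2 fell at 1.5-fold, FOS being the second to fall. All genes past the limit, either way, numbered 1896, 1968 and 4214 in the 3 comparisons, but 923, 1014 and 2643 with a pseudocount of 5, 237, 247 and 999 at 4-fold, and 4820, 4907 and 7257 at 1.5-fold. The FOSL1 share of the FOS family on day 4 was 68.1% by fragments not per length. The median of all genes for day 6 against day 4 shifted to -0.14 with no TMM factor and -0.30 with TPM, and for day 10 against day 4 to -0.11 and -0.31; relative to those medians FOSL2 was at 1.09 and 1.12 on day 6. The share of risers among called genes was 54.5% on day 6 against day 4, but 39.3% with no TMM factor and 25.5% with TPM, and for day 10 against day 4 it was 52%, 44.1% and 31.9%. The FOSB difference to day 6, near 0, changed sign with no TMM factor (-0.07), TPM (-0.41) and read counts (-0.16). No paired analysis was possible because each stage has 1 library. The planned JUNB share of the JUN family was not run, as JUNB is not among the listed gene names. FOSL1 after day 4, ATF3 and FOSB rest on between 33 and 105 fragments a library, which limits their precision.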

Other observations

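FOSB was counted unlike the other members. FOSB had 1.23, 1.06 and 1.02 reads per fragment on days 4, 6 and 10, while the medians over the genes with at least 50 fragments were 1.45, 1.49 and 1.46. Its values stood at percentiles 6.44, 1.09 and 0.492 of those genes. FOSB therefore gives different answers in fragments and in reads: FOSB was at 6.7, 6.3 and 10.6 FPKM, but at 5.5, 4.4 and 7.1 RPKM, and its log2 difference from day 4 to day 10 was 0.70 with fragments and 0.43 with read counts. It was 0.14 with TPM, a scale on which the all-gene median was itself at -0.31. The other 5 measured members had between 1.38 and 1.58 reads per fragment in each library.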
